A study of Mus musculus with 6 samples.

Results

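Prostanoids are short-lived lipid signals made from arachidonic acid, and 10 genes of their synthesis and reception are described here in mouse fat tissue with and without Prmt5. The genes are the cyclooxygenases Ptgs1 and Ptgs2, the terminal synthases Ptgds, Hpgds, Ptges, Ptgis and Tbxas1, and the receptors Ptger3, Ptger4 and Ptgfr. They were taken by symbol from the 14291 genes of the authors' deposited table, and all 10 were present and tested. They were picked with the genotype differences of these same libraries known, so their differences between genotypes are a description, and the adjusted p-values printed for them come from fits to all 14291 genes.

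PolyA-selected RNA was sequenced from tissue labelled epididymal white adipose tissue, the visceral fat depot beside the epididymis, in 3 wild-type and 3 knockout libraries. Both groups derive from mice with floxed Prmt5 alleles: the wild-type group is written Prmt5flox/flox, and the knockout group is written Prmt5AKO, an abbreviation the labels do not expand. The labels used here give no Cre driver, no cell type for the deletion, and no age, sex, diet or treatment of the mice. Prmt5 encodes an arginine methyltransferase of histones and splicing proteins. The labels do not tie each library to an animal of its own, so the p-values reflect spread among these libraries that may be technical.

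In cells, phospholipases free arachidonic acid from membranes and cyclooxygenases turn it into prostaglandin H2. Terminal synthases then make prostaglandin D2 (Ptgds and Hpgds), prostaglandin E2 (Ptges), prostacyclin (Ptgis) or thromboxane A2 (Tbxas1), each of which acts close to its source through G protein-coupled receptors. In fat, prostaglandin E2 acting on the EP3 receptor restrains lipolysis, prostacyclin favours adipocyte differentiation, and prostaglandin F2alpha acting on its receptor FP opposes it.

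The promoters of the cyclooxygenase pair and of the prostaglandin D synthase pair are shown because the 2 genes that differed most between genotypes, Ptgds and Ptgs2, each have a partner that makes the same product. The sequences are from RefSeq (GRCm38.p6) and run 5′ to 3′ on the strand of the gene, from 250 bases before to 50 bases after the annotated start. They cover chr2:25469700-25469999 on the minus strand for Ptgds, chr6:65144681-65144980 on the minus strand for Hpgds, chr2:36230176-36230475 on the plus strand for Ptgs1 and chr1:150099781-150100080 on the plus strand for Ptgs2. Capitals mark matches to the searched motifs.
Ptgds promoter: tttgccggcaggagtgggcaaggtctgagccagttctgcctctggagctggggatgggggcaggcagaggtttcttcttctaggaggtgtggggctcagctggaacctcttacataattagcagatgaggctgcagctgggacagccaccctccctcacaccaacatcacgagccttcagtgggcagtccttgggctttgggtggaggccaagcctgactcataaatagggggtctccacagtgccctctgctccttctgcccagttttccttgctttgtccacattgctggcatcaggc
Hpgds promoter: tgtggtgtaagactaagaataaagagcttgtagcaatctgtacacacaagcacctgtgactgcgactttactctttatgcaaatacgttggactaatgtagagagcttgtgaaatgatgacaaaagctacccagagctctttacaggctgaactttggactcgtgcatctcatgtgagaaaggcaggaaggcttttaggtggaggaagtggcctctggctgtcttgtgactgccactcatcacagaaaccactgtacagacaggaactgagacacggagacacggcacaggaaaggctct
Ptgs1 promoter: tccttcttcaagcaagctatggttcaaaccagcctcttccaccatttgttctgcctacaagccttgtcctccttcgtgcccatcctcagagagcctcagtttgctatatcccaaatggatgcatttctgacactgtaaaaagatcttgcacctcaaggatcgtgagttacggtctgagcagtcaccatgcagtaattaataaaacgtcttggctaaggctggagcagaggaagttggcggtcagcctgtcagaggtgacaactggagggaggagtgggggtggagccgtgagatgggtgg
Ptgs2 promoter: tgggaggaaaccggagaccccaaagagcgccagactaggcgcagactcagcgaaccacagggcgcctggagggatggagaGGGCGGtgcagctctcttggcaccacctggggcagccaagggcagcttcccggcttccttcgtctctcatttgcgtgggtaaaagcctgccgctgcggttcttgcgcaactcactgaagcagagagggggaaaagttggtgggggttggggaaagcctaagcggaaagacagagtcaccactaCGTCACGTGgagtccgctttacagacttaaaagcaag

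The motifs searched on both strands were TATAAA (the TATA box), CCAAT (the CAAT box), GGGCGG (the GC box), TGACG (a cAMP response element core), CACGTG (an E-box) and TGACGTCA (the full cAMP response element). In the Ptgs2 window GGGCGG began at position -170 from the start, a motif that 35.7% of 32851 promoters of this length held. A reverse-strand TGACG at position 14 overlapped a CACGTG at position 17, and these motifs were held by 20.8% and 7.15% of promoters. None of the 6 motifs was matched in the Ptgds, Hpgds or Ptgs1 windows. The Ptgs2 window had 16 CpG dinucleotides and those of Ptgds, Hpgds and Ptgs1 had 2, 5 and 6. RefSeq places the Ptgs2 start 93 bases upstream of the start in the deposited table, and the starts of the other 3 are the same in both.

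Differences between libraries did not follow genotype alone. Total counts were 20746401, 26403882 and 25660998 in wild-type replicates 1 to 3 and 17489530, 24454163 and 23494089 in knockout replicates 1 to 3, so that 3 counts corresponded to 0.112 to 0.148 CPM. The first principal component of log2 CPM, with 61.8% of the variance, placed wild-type replicates 1 and 3 and knockout replicate 1 (scores -78.2 to -45.7) apart from wild-type replicate 2 and knockout replicates 2 and 3 (27.3 to 85.0). Xist was detected in all 6 libraries (45.6 to 1044 CPM) and 4 Y-linked genes were not among the genes analysed. Both go against the sex that an epididymal label implies, though a gene absent from the analysed set is not shown to be unexpressed. Of 12 epididymis and testis genes, 1 was analysed (Rnase10, at most 3.01 CPM). All 8 adipocyte markers were present. Prmt5 stood at 37.5, 59.9 and 40.8 CPM in wild type and at 14.8, 22.4 and 28.5 CPM in knockout, so the genotypes did not overlap (edgeR log2 fold change -1.07, SE 0.34, adjusted p = 0.467).

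Levels are given as CPM (counts relative to the library total, with TMM scaling from edgeR) for wild-type replicates 1 to 3 and then knockout replicates 1 to 3. Fold changes are log2 values, knockout over wild type, from 2 edgeR quasi-likelihood fits with Benjamini-Hochberg adjustment over all genes. The genotype-only fit has genotype as its only term. The batch-term fit adds a term that parts replicate 1 of both genotypes from replicates 2 and 3, a grouping whose meaning the labels do not give but which matched the authors' deposited fold changes to within 8.33e-15. Called means an adjusted p under 0.05. A value within replicate 1 is the log2 difference of a single knockout and a single wild-type library and has no error.

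Per unit of exonic length, the transcripts of prostacyclin synthase, prostaglandin E synthase and the EP3 receptor were the highest of the 10 in wild-type fat. Their levels were 44.1 ± 8.81 RPKM (Ptgis), 35.5 ± 16.05 RPKM (Ptges) and 30.1 ± 6.20 RPKM (Ptger3), as mean ± SD over 3 libraries. Ptges overlapped the other two, every Ptgis value lay above every Ptger3 value, and all 3 lay above the rest. Tbxas1 (9.80 ± 3.13 RPKM), Ptgs1 (7.14 ± 1.11), Ptgds (4.51 ± 2.39), Ptgfr (3.30 ± 1.72), Ptger4 (2.13 ± 0.388) and Hpgds (1.67 ± 0.797) formed a run in which each overlapped the next. Ptgs2 stood below all of them at 0.436 ± 0.246 RPKM. In knockout fat Ptges led at 63.1 ± 37.6 RPKM, followed by Ptgis (50.3 ± 30.3), Ptger3 (16.6 ± 2.98) and Tbxas1 (13.7 ± 3.83), each overlapping the next. Ptgs1 (6.27 ± 0.472) came next, below all 4, and then the run of Ptgfr, Hpgds and Ptger4 (3.82 ± 1.53, 2.42 ± 3.13 and 1.79 ± 1.02 RPKM). Ptgs1 lay above all values of this run but 1, that of Hpgds in knockout replicate 1 (6.03 RPKM, beside 5.95 RPKM for Ptgs1). Ptgds (0.196 ± 0.0815 RPKM) and then Ptgs2 (0.05002 ± 0.0533 RPKM) came last, without overlap.

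**Figure D1:**
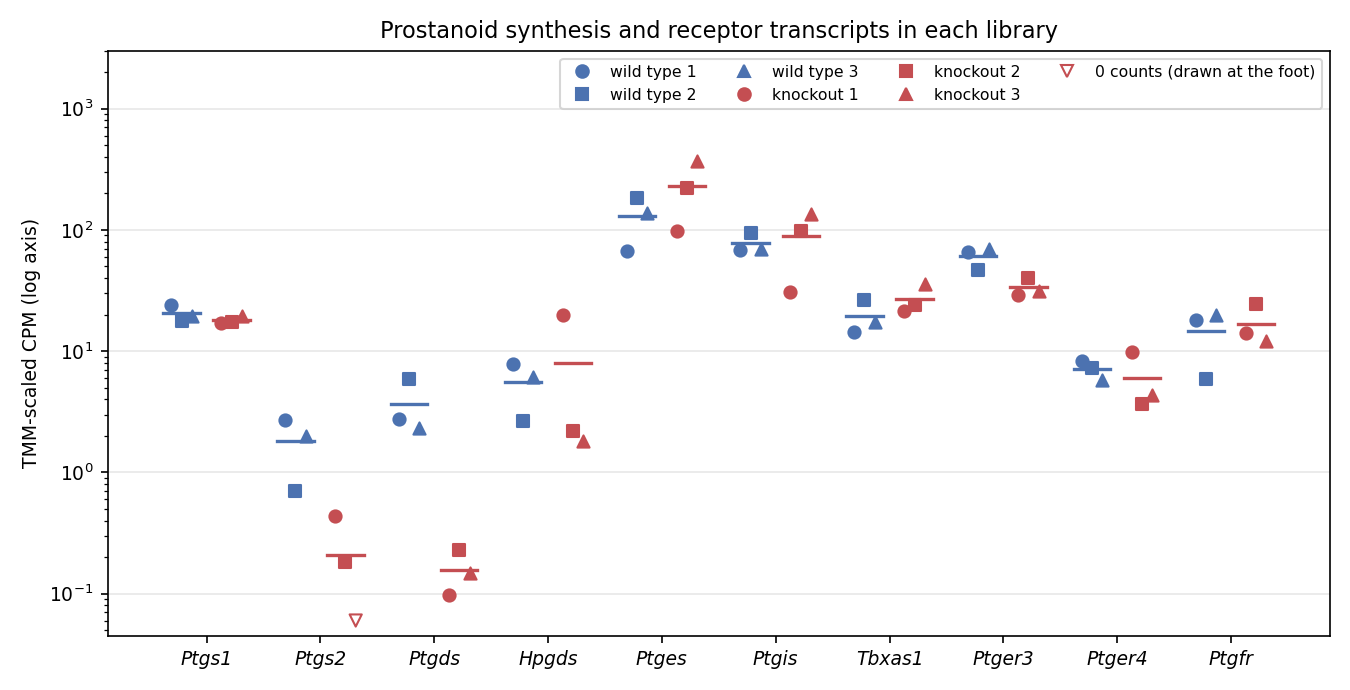
TMM-scaled CPM (log axis) of the 10 genes in each of the 3 wild-type (blue) and 3 knockout (red) libraries, with marker shape for the replicate number, horizontal lines for the group means and an open triangle for 0 counts. Ptgds, Ptgs2 and Ptger3 are the 3 genes whose knockout points all lie below the wild-type points.

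Of the 10 genes, 3 had no overlap between genotypes, all lower in knockout (Ptgds, Ptgs2 and Ptger3), where 6.2% of all genes were lower without overlap and 8.32% higher (14.5% in all). In the batch-term fit 1 gene, Ptgds, was called lower and 0 higher, where 0.119% of all genes were called lower and 0.385% higher (0.504% in all). The genotype-only edgeR fit called 0 of the 10 and 0% of all genes. At an unadjusted p under 0.05 it held 3 of the 10, all lower (3.37% of all genes were lower and 5.26% higher), and the batch-term fit held 3 lower and 1 higher (12.4% and 12.1% of all genes). DESeq2 called Ptgds alone with genotype only (0.7% of all genes were called lower). With the batch term DESeq2 called Ptgds, Ptgs2 and Ptger3 lower and Ptges higher (5.25% and 6.14% of all genes). The median log2 fold change of the 10 was 0.0022 in the genotype-only fit and -0.24 in the batch-term fit, beside -0.016 and -0.046 over all genes. As the genes were chosen on this contrast, nothing is read from these counts.

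The constitutive cyclooxygenase transcript was near-level across libraries while the inducible one, already scarce in wild type, was lower in every knockout library. Ptgs1 (COX-1, chromosome 2, 36230426 to 36252271, mm10), the housekeeping isozyme of platelets, stomach and many tissues, stood at 24.0, 17.9 and 19.5 CPM in wild type and 17.1, 17.4 and 19.5 CPM in knockout. The genotypes overlapped, and the edgeR log2 fold change was -0.19 (SE 0.26, adjusted p = 0.747) with genotype only and -0.18 (SE 0.22, adjusted p = 0.613) with the batch term. Ptgs2 (COX-2, chromosome 1, 150100124 to 150108012), the isozyme induced by inflammatory signals and growth factors, had 61, 18 and 54 counts in wild type and 9, 4 and 0 counts in knockout. These correspond to 2.71, 0.701 and 2.01 CPM against 0.440, 0.182 and 0 CPM. All knockout libraries lay below all wild-type libraries, with wild-type replicate 2 the nearest, and a count of 0 in knockout replicate 3 allows up to 0.148 CPM. The summed counts of 133 and 13 give a wild-type over knockout ratio of 8.53, with an exact 95% Poisson interval of 4.82 to 16.4 that covers counting error only. Its edgeR log2 fold change was -3.09 (SE 1.01, adjusted p = 0.479) with genotype only and -3.27 (SE 0.86, adjusted p = 0.115) with the batch term. It was -2.41 within replicate 1 and -3.81 within replicates 2 and 3.

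The inducible isozyme was therefore a small and variable share of cyclooxygenase transcript. Ptgs2 made up 7.23%, 2.64% and 6.65% of the summed RPKM of the pair in wild-type replicates 1 to 3. In knockout it made up 1.75%, 0.721% and 0%. The knockout shares all lay below the wild-type shares.

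The 2 prostaglandin D synthases are unrelated proteins: Ptgds encodes the lipocalin-type enzyme, which is also secreted and binds lipophilic ligands, and Hpgds encodes the glutathione-dependent enzyme of mast cells, macrophages and other blood-derived cells. Ptgds (chromosome 2, 25466712 to 25469749) had 62, 150 and 62 counts in wild type and 2, 5 and 3 counts in knockout. These are 2.75, 5.84 and 2.31 CPM against 0.0977, 0.228 and 0.148 CPM. All 3 knockout libraries were close to the level of 3 counts, and all 3 wild-type libraries stood far above the highest of them. The summed counts of 274 and 10 give a ratio of 22.9, with an exact 95% Poisson interval of 12.2 to 48.2 for counting error only. The edgeR log2 fold change was -4.47 (SE 0.64, adjusted p = 0.148) with genotype only and -4.49 (SE 0.62, adjusted p = 0.0321) with the batch term, the value that the authors' deposited table also lists. It was -3.94 within replicate 1 and -4.42 within replicates 2 and 3.

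The call on Ptgds rested on few libraries. When each library in turn was omitted from the batch-term fit, its fold change ran from -4.87 to -3.99 and it passed in 2 of 6 fits. Omitting wild-type replicates 2 and 3 kept the call (edgeR adjusted p = 0.0460 and 0.0101). Omitting wild-type replicate 1 (edgeR adjusted p = 0.0674) or knockout replicates 1, 2 and 3 (edgeR adjusted p = 0.0751, 0.274 and 0.139) ended it. After per-library trends with transcript length and GC content were removed by offsets it was -4.98 (adjusted p = 0.00849, edgeR batch-term fit), a fit that called 0.903% of all genes lower.

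Hpgds (chromosome 6, 65117293 to 65144730) overlapped between genotypes, and its higher mean in knockout rested on 1 library. It stood at 7.81, 2.65 and 6.10 CPM in wild type and 19.9, 2.19 and 1.83 CPM in knockout. Knockout replicate 1 was the highest of all 6 libraries and the other 2 knockout libraries were the lowest. The edgeR log2 fold change was 0.53 (SE 0.92, adjusted p = 0.794) with genotype only and -0.30 (SE 0.59, adjusted p = 0.759) with the batch term. It was 1.34 within replicate 1 and -1.15 within replicates 2 and 3, and -1.45 (adjusted p = 0.0988, edgeR genotype-only fit) without knockout replicate 1.

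Within the pair, Ptgds gave the larger share of summed RPKM in every wild-type library and the smaller share in every knockout library. Its shares were 59.1%, 90.0% and 60.8% in wild type and 1.97%, 29.9% and 24.9% in knockout. In knockout replicate 1 the low share reflects both the lowest Ptgds level and the highest Hpgds level. The remaining prostaglandin D synthase transcript in knockout fat was thus mostly Hpgds.

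**Figure D2:**
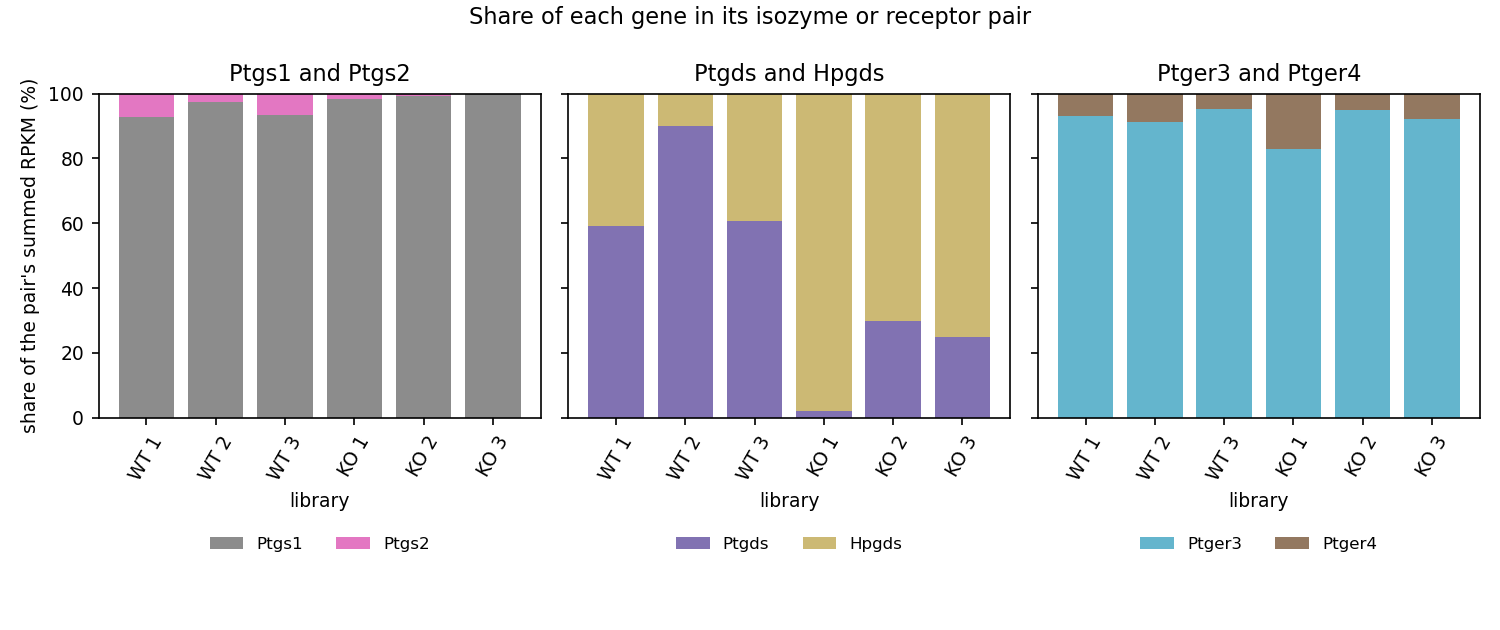
Share (percent of the summed RPKM) of each gene in the pairs Ptgs1 with Ptgs2, Ptgds with Hpgds and Ptger3 with Ptger4, with 1 stacked bar for each wild-type (WT) and knockout (KO) library. Ptgds is above 59% in the wild-type bars and below 30% in the knockout bars, and the Ptgs2 band is at most 1.75% in knockout.

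Prostaglandin E and thromboxane synthase transcripts had higher means in knockout with overlapping libraries, and prostacyclin synthase differed in opposite directions in the 2 batches. Ptges (chromosome 2, 30889471 to 30903297), the inducible microsomal enzyme that works with COX-2, stood at 67.0, 183 and 138 CPM in wild type and 98.3, 220 and 372 CPM in knockout. Replicate 1 was the lowest of its genotype in both, and knockout replicate 3 was the highest of all. The edgeR log2 fold change was 0.83 (SE 0.54, adjusted p = 0.609) with genotype only and 0.77 (SE 0.26, adjusted p = 0.154) with the batch term, with 0.55 within replicate 1 and 0.86 within replicates 2 and 3. Tbxas1 (chromosome 6, 38918986 to 39084579), whose enzyme in platelets and macrophages makes thromboxane A2, stood at 14.5, 26.4 and 17.3 CPM in wild type and 21.4, 24.1 and 35.7 CPM in knockout. The genotypes overlapped (0.49, SE 0.26, adjusted p = 0.264, edgeR batch-term fit).

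Ptgis (chromosome 2, 167203196 to 167240537), the cytochrome P450 family enzyme that makes prostacyclin, stood at 67.8, 95.1 and 68.9 CPM in wild type and 30.8, 98.2 and 135 CPM in knockout. Knockout replicate 1 was the lowest library and knockout replicate 3 the highest, with the wild type between them. The edgeR log2 fold change was 0.19 (SE 0.50, adjusted p = 0.863) with genotype only and -0.022 (SE 0.36, adjusted p = 0.971) with the batch term. It was 0.49 within replicates 2 and 3 and -1.14 within replicate 1. Of the summed RPKM of Ptges and Ptgis, Ptges made up 32.2%, 48.1% and 49.0% in wild type and 60.5%, 51.8% and 56.9% in knockout. On this within-library share the knockout libraries all stood above the wild-type ones, narrowly so for knockout replicate 2.

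Some of these genes split the libraries as the first principal component did and not by genotype. Hpgds was higher in wild-type replicates 1 and 3 and knockout replicate 1 than in the other 3 libraries, without overlap. Ptges, Ptgis and Tbxas1 were lower in those 3 libraries than in the other 3. Xist moved with this split, at 958, 510 and 1044 CPM in those 3 libraries against 106, 45.6 and 47.2 CPM in wild-type replicate 2 and knockout replicates 2 and 3. Whether this split has a technical source was not tested.

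Among the receptors, the transcript of EP3 was lower in every knockout library, and those of EP4 and FP overlapped. Ptger3 (chromosome 3, 157566892 to 157644758), the inhibitory G protein-coupled receptor for prostaglandin E2 that adipocytes carry, stood at 66.0, 46.4 and 69.7 CPM in wild type and 29.1, 40.4 and 31.2 CPM in knockout. The nearest libraries were wild-type replicate 2 and knockout replicate 2. The means of 60.7 ± 12.5 and 33.6 ± 6.02 CPM leave 55.3% of the wild-type level. The edgeR log2 fold change was -0.85 (SE 0.28, adjusted p = 0.479) with genotype only and -0.86 (SE 0.25, adjusted p = 0.129) with the batch term, so it was not called in either. It was -1.18 within replicate 1 and -0.72 within replicates 2 and 3, and -0.85 with length and GC offsets (adjusted p = 0.0763, edgeR batch-term fit).

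Ptger4 (chromosome 15, 5233399 to 5244187), the stimulatory receptor for the same ligand that raises cAMP, stood at 8.30, 7.24 and 5.73 CPM in wild type and 9.87, 3.65 and 4.35 CPM in knockout. Knockout replicate 1 was the highest library and the other 2 knockout libraries were the lowest (-0.38, SE 0.34, adjusted p = 0.476, edgeR batch-term fit). Ptger4 made up 7.09%, 8.65% and 4.75% of the summed RPKM of Ptger3 and Ptger4 in wild type and 17.1%, 5.19% and 7.81% in knockout, which overlap. EP3 transcript was thus the larger of the 2 in every library.

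Ptgfr (chromosome 3, 151798610 to 151837528), the receptor for prostaglandin F2alpha, stood at 18.2, 5.88 and 19.7 CPM in wild type and 13.97, 24.6 and 12.02 CPM in knockout. Wild-type replicate 2 was the lowest library and knockout replicate 2 the highest. With the batch term the edgeR log2 fold change was 0.22 (SE 0.48, adjusted p = 0.781) and 1.03 with length and GC offsets (adjusted p = 0.199, edgeR). It was below 0, at -0.22 and -0.21, without wild-type or knockout replicate 2. No source used here states whether counting used strand, and 5.14% of the exonic bases of Ptgfr and 5.16% of those of Ptgs1 overlap annotated transcripts on the opposite strand, so that reads from those stretches cannot be told apart.

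**Figure D3:**
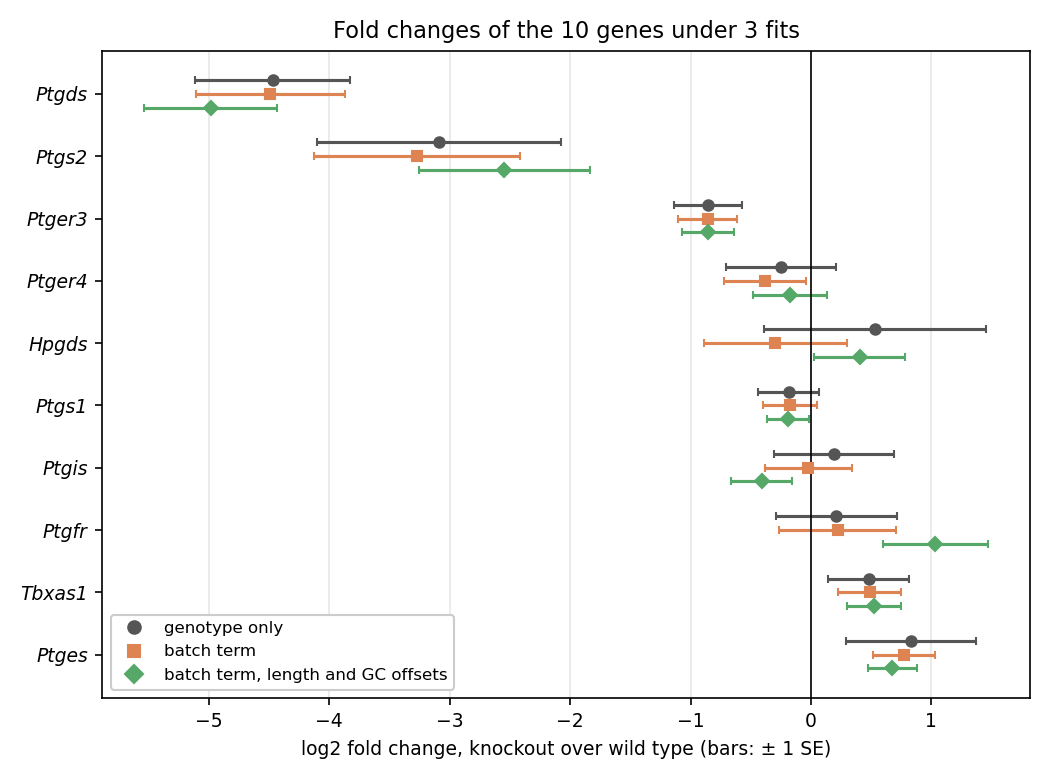
Log2 fold changes (knockout over wild type) of the 10 genes in the genotype-only fit, the batch-term fit and the batch-term fit with length and GC offsets, with bars of 1 SE on each side. Ptgds lies between -4.98 and -4.47 and Ptger3 between -0.86 and -0.85 in all 3 fits, while Hpgds and Ptgis change sign between them.

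Beyond these 10, 17 other genes of prostanoid synthesis, reception, breakdown and transport were tested, of 20 listed, and 0 were called in either edgeR fit. At an unadjusted p under 0.05 there were 6 of the 17 in the batch-term fit (24.5% of all genes) and 2 in the genotype-only fit (8.63% of all genes). Their batch-term log2 fold changes ran from -0.64 to 0.88 with a median of -0.16. DESeq2 called 0 of them with genotype only and 3 of them higher with the batch term (Fam213b, Akr1b8 and Ptger1). With the batch term it called 6.14% of all genes higher.

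Of 6 other synthesis genes, 4 lay above 0 in the batch-term fit. Ptges2, a further prostaglandin E synthase, stood at 27.9, 67.5 and 44.5 CPM in wild type and 38.8, 87.9 and 121 CPM in knockout (0.76, SE 0.25, adjusted p = 0.151, edgeR, batch term). The 6 libraries ranked in the same order for Ptges2 and Ptges, and the ratio of Ptges to Ptges2 in RPKM lay between 1.29 and 1.66 in all 6 libraries. Akr1b8, an aldo-keto reductase of the family that includes a mouse prostaglandin F synthase, stood at 23.9, 31.6 and 25.6 CPM and 35.7, 56.6 and 53.4 CPM. It was higher in every knockout library (0.82, SE 0.21, edgeR batch-term adjusted p = 0.112). Fam213b, the prostamide and prostaglandin F synthase, stood at 73.4, 145 and 107 CPM and 116, 270 and 232 CPM, with overlap (0.88, SE 0.21, adjusted p = 0.104, edgeR batch-term fit). Ptges3, the HSP90 co-chaperone p23 that is also a cytosolic prostaglandin E synthase, had a log2 fold change of -0.29 that became 0.12 with length and GC offsets.

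Of 5 other receptor genes tested, 2 lay above 0, while the prostaglandin D2 receptor genes Ptgdr and Ptgdr2 were not among the genes analysed. Ptger1, the calcium-raising EP1 receptor for prostaglandin E2, stood at 26.6, 38.5 and 33.3 CPM and 41.3, 59.7 and 64.5 CPM. It was higher in every knockout library (0.74, SE 0.19, edgeR batch-term adjusted p = 0.116). As the strand setting is not stated, its counts, like those of the other genes, are uncertain wherever a transcript lies on the opposite strand. Ptgir, the prostacyclin receptor, stood at 13.9, 11.8 and 9.86 CPM and 10.1, 7.56 and 5.49 CPM (-0.64, SE 0.27, edgeR batch-term adjusted p = 0.201). The genotypes overlapped only through wild-type replicate 3 and knockout replicate 1. Ptger2, the other cAMP-raising E2 receptor, had a log2 fold change of -0.53 and Ptgfrn, a protein that binds FP, one of 0.14. Of the exonic bases of Ptger2, 6.53% overlap Gm17173 and 3.82% overlap Gm49364, both annotated on the opposite strand.

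Of 6 genes of breakdown and transport, 1 lay above 0. Abcc4, an export pump for prostaglandins among other organic anions, stood at 13.4, 14.1 and 14.6 CPM in wild type and 9.09, 8.66 and 9.84 CPM in knockout. The libraries of each genotype lay close together and did not overlap, and the gene was still not called (-0.61, SE 0.24, adjusted p = 0.184, edgeR batch-term fit). Ptgr1, a reductase that inactivates prostaglandins and leukotriene B4, stood at 10.4, 13.7 and 11.7 CPM and 15.05, 19.1 and 17.2 CPM, also without overlap (0.52, SE 0.23, adjusted p = 0.204, edgeR, batch term). The further reductase genes Zadh2 and Ptgr2 had values of -0.63 and -0.37, and 57.6% of the exonic bases of Ptgr2 overlap a noncoding gene on the opposite strand. Hpgd, the dehydrogenase that starts the breakdown of prostaglandins, had a value of -0.49 and the uptake transporter gene Slco2a1 one of -0.087.

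Upstream, 1 of the 9 genes listed for release of arachidonic acid was called in the batch-term edgeR fit. This call was a higher one (0.385% of all genes were called higher). Pla2g2e, a secreted phospholipase A2, rose in the batch-term fit, from 2.09, 3.58 and 3.46 CPM in wild type to 13.2, 53.1 and 37.6 CPM in knockout (3.36, SE 0.31, adjusted p = 0.0130, edgeR). All knockout libraries stood above all wild-type libraries, the log2 fold change was 2.61 within replicate 1 and 3.66 within replicates 2 and 3, and the call was lost without knockout replicate 2 (adjusted p = 0.122, edgeR). Pla2g4a, the cytosolic phospholipase A2 that prefers arachidonic acid and feeds the cyclooxygenases, stood at 18.3, 12.2 and 15.1 CPM and 6.94, 6.42 and 5.09 CPM. It was lower in every knockout library and was not called by edgeR (-1.30, SE 0.26, adjusted p = 0.0809, edgeR batch-term fit). DESeq2 with genotype only called it lower (adjusted p = 0.00895). With length and GC offsets its value was -0.79. Pla2g5, another secreted enzyme, stood at 1.73, 1.21 and 1.86 CPM and 5.23, 7.52 and 2.62 CPM, without overlap (1.68, SE 0.49, adjusted p = 0.131, edgeR, batch term). The calcium-independent Pla2g6 had a value of 0.87 (SE 0.25, adjusted p = 0.130, edgeR batch-term fit). Of the 9, 7 lay above 0 in the batch-term fit (47.6% of all genes), with a median of 0.43, and 4 were higher and 1 lower at an unadjusted p under 0.05 (12.1% and 12.4% of all genes). The genotype-only edgeR fit called 0 of the 9, with 3 higher and 1 lower at that level (5.26% and 3.37% of all genes). DESeq2 with genotype only called 1 of the 9 higher, Pla2g2e, and 1 lower, Pla2g4a (171 and 100 of all genes). With the batch term DESeq2 called 3 of the 9 higher and 1 lower (6.14% and 5.25% of all genes).

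**Figure D4:**
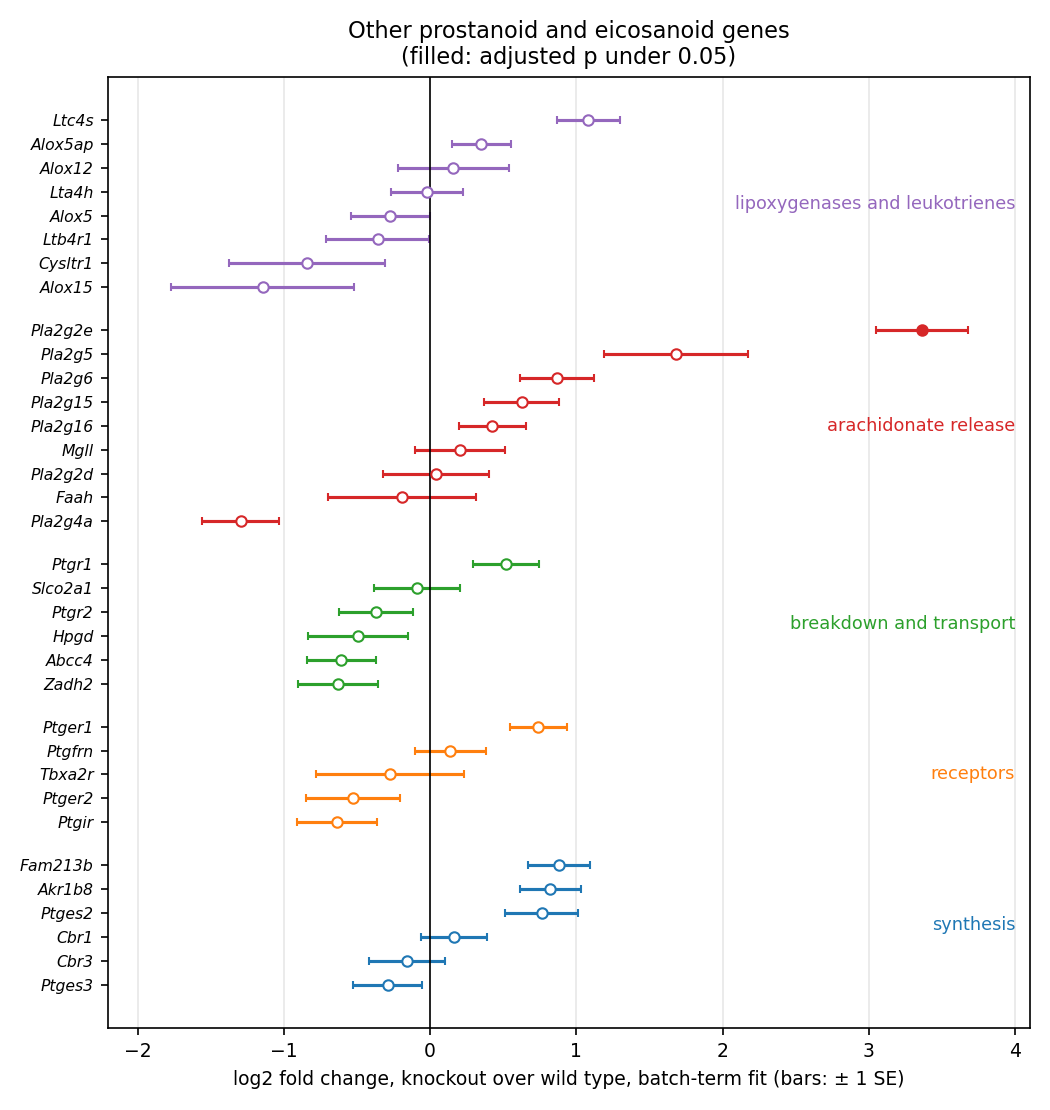
Batch-term log2 fold changes (knockout over wild type) with bars of 1 SE on each side for other genes of prostanoid synthesis, receptors, breakdown and transport, arachidonate release and the lipoxygenase branch, with filled points for an adjusted p under 0.05. Pla2g2e at 3.36 is the only filled point.

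The genes whose log2 CPM ran most like that of Ptgds over the 6 libraries, among 13599 genes with a mean of at least 1 CPM, were Gpr27, Ldhd, Glul, Cmtm6 and Tdrp (Pearson r 0.978 to 0.987, n = 6, given as a description). The 6 points share their depth and the split between genotypes. All 5 genes were lower in every knockout library (6.2% of all genes were), which a ranking by likeness to Ptgds favours. Ldhd, a mitochondrial D-lactate dehydrogenase, stood at 41.0, 60.6 and 34.1 CPM in wild type and 14.1, 14.1 and 15.4 CPM in knockout. Like Ptgds it was highest in wild-type replicate 2. The glutamine synthetase gene Glul differed far less, at 1758, 1862 and 1811 CPM and 1492, 1510 and 1549 CPM. The 12 tested genes within 100 kb of Ptgds had batch-term log2 fold changes from -0.63 (Abca2) to 1.59 (Sapcd2), 2 of them below 0, and 0 were called (smallest adjusted p = 0.165, edgeR, with 4 at an unadjusted p under 0.05, as were 24.5% of all genes).

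Bulk tissue holds several cell types that make these transcripts, and in these data fewer cells of a type and less RNA per cell cannot be told apart. Summed CPM of adipocyte markers (8 of 8 present) ran from 36089 to 48298 in wild type and 25712 to 35335 in knockout, and of fibroblast and progenitor markers (8 of 8) from 3819 to 5811 and 2662 to 3090. Both sums were lower in every knockout library, as were Ptger3, Ptgs2 and Ptgds, but most single markers overlapped. Of the adipocyte markers, Cfd (-1.31) and Pparg (-0.59) were lower without overlap (6.2% of all genes were). The others overlapped, with batch-term values of 0.20, 0.36 and 0.58 for Adipoq, Plin1 and Lipe. Those of Lep, Fabp4 and Cidec were -0.56, -0.42 and -0.26. Without Fabp4 and Cfd, the 2 most abundant, the adipocyte sums overlapped, at 11652 to 15307 and 9560 to 16281 CPM. Of the fibroblast and progenitor markers, Dpp4, Pi16 and Dcn were lower without overlap (6.2% of all genes were) and the other 5 overlapped. Eosinophil markers (5 of 7) summed to 11.7, 28.5 and 48.2 CPM in wild type and 8.45, 11.6 and 9.79 CPM in knockout. Epx and Ear1 were not among the genes analysed. Ccr3 was lower without overlap and was called lower (-3.14, adjusted p = 0.0321, edgeR batch-term fit), where 0.119% of all genes were called lower. Siglecf (-2.25) and Il5ra (-2.38) were also lower without overlap (6.2% of all genes were), whereas Ear2 (-0.26) and Prg2 (0.28) overlapped. Without Ccr3 the eosinophil sums were 6.61, 15.97 and 23.9 CPM and 8.06, 9.84 and 6.73 CPM, which overlap. The sum of smooth muscle and pericyte markers (6 of 6) was higher without overlap, at 901 to 1510 and 1631 to 3163 CPM. Singly, only Tagln and Cnn1 were higher without overlap (8.32% of all genes were). The pericyte marker Rgs5 went the other way (-1.04, edgeR batch-term adjusted p = 0.199). None of the markers present was at 0 in any library. The part of these cell types in the differences of Ptgds, Ptgs2 and Ptger3 was not tested.

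Macrophage markers (9 of 9) summed to 1548 to 2921 CPM in wild type and 2165 to 3783 CPM in knockout, with overlap. In the batch-term fit 7 of the 9 lay above 0, with a median of 0.37, and 4 were higher and 1 lower at an unadjusted p under 0.05 (12.1% and 12.4% of all genes). Cd68, a lysosomal protein of macrophages, was higher in every knockout library (1.01, edgeR batch-term adjusted p = 0.125), and the complement genes C1qa, C1qb and C1qc had values of 0.61, 0.70 and 0.61 with overlap. The 1 call was Cd163, a scavenger receptor of resident macrophages, which was lower (-1.47, edgeR batch-term adjusted p = 0.0321). Of all genes, 0.119% were called lower. Platelet markers (4 of 5) summed to 59.2 to 142 and 64.6 to 107 CPM. Wild-type replicate 1 was the lowest of the 6 libraries in both sums and in Tbxas1 and Ptges, and knockout replicate 3 was the highest in the macrophage sum, Tbxas1 and Ptges.

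In knockout replicate 1, Ptgis was lowest together with summed mesothelial markers and Hpgds highest together with summed mast cell markers, though single markers differed. Mesothelial markers (7 of 7), genes of the lining of visceral fat, summed to 407, 384 and 277 CPM in wild type and 89.9, 309 and 464 CPM in knockout. Knockout replicate 1 was lowest and knockout replicate 3 highest in both this sum and Ptgis. Singly, all of these markers but Wt1 were lowest in knockout replicate 1, and only Upk3b and Krt19 were highest in knockout replicate 3. Msln, Lrrn4, Gpm6a and Wt1 were highest in wild-type replicate 1, and Upk1b in wild-type replicate 2. Endothelial markers (6 of 6) summed to 773, 556 and 494 CPM in wild type and 613, 451 and 523 CPM in knockout. Their sum was highest in wild-type replicate 1 and lowest in knockout replicate 2, unlike Ptgis. Mast cell markers (7 of 8) summed to 84.5, 111 and 79.4 CPM and 122, 53.8 and 76.4 CPM. Knockout replicate 1 was highest in both this sum and Hpgds, by less in the sum, where wild-type replicate 2 came near it, than in Hpgds, where no other library did. Singly, only Cpa3 and Mcpt4 of these markers were highest in knockout replicate 1. Cma1, Tpsb2, Fcer1a and Hdc were highest in wild-type replicate 2, and Kit in wild-type replicate 1. Whether these cells set the level of either gene was not tested.

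**Figure D5:**
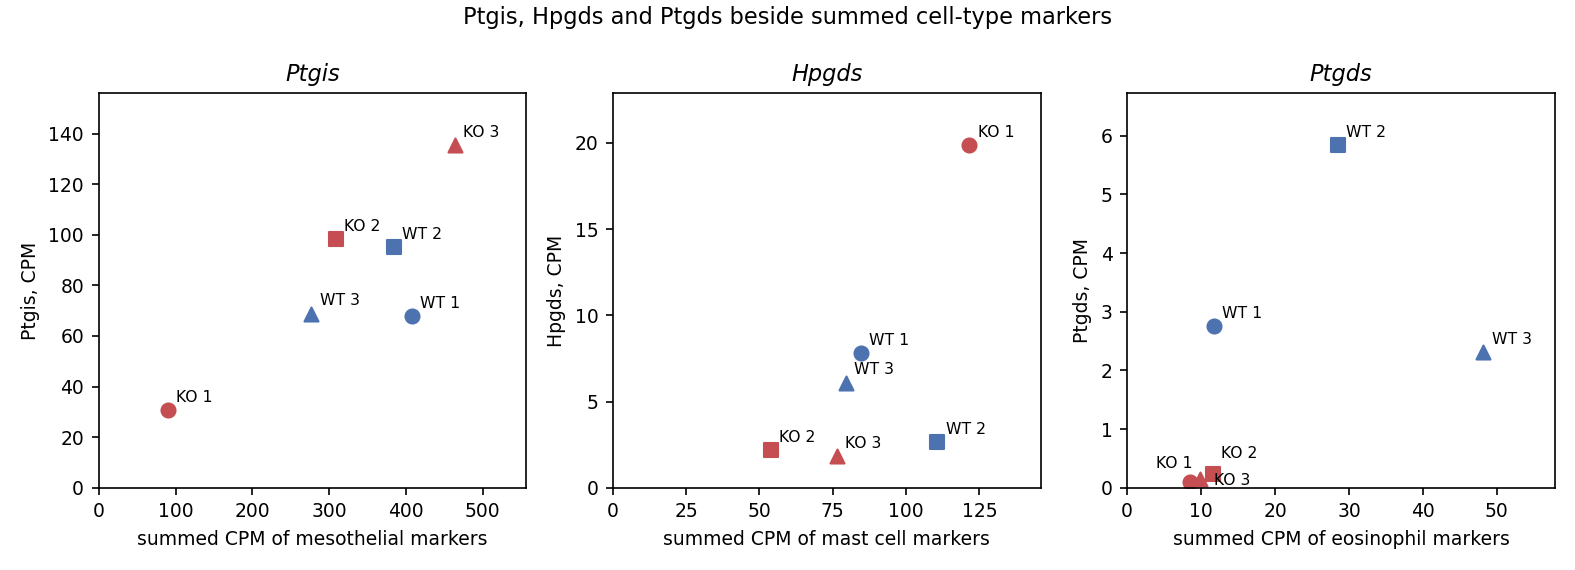
CPM of Ptgis, Hpgds and Ptgds (vertical axes) against the summed CPM of mesothelial, mast cell and eosinophil markers (horizontal axes), with 1 point for each wild-type (WT, blue) and knockout (KO, red) library. Knockout replicate 1 is lowest on both axes for Ptgis (30.8 and 89.9 CPM) and highest on both for Hpgds (19.9 and 122 CPM). The 3 knockout libraries lie lowest on both axes for Ptgds. On the eosinophil axis knockout replicate 2 (11.6 CPM) nearly meets wild-type replicate 1 (11.7 CPM), and without Ccr3 the genotypes overlap.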

How the data were processed

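PolyA RNA-seq libraries, 3 per genotype, were grouped by sample title. TopHat2, HTSeq 0.6.1 and the build mm10 are named, with no roles, in the submitters' processing notes. The authors deposited 1 table of 14291 genes with raw counts, and per the file headers it also holds log2 RPKM, a log2 fold change, p-values and adjusted p-values. No source used here gives the strand setting or the annotation.

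The tests used edgeR 4.0.16 (R 4.3.3) on these counts, with TMM scaling, glmQLFit and glmQLFTest. filterByExpr removed 0 genes, since the least third-highest CPM was 0.606. RPKM values used here are TMM-scaled CPM per kilobase of deposited exonic length. The deposited p-values matched the batch-term fit (median absolute log10 ratio 8.30e-14, against 0.184 with genotype only). Residual degrees of freedom were 4 with genotype only and 3 with the batch term. Alternatives were RLE factors, filters, DESeq2 1.42.0, limma-voom (limma 3.58.1), each library left out, loess offsets (span 0.5, GC from GENCODE M21 for 96.5% of genes), a replicate block, replicates 2 and 3 alone, and an adjusted p under 0.1. The fits were checked on simulated counts. Motifs were searched with Python 3.11.15.

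The 10 genes, the gene lists and the batch term were chosen with earlier results of these data known. Named were all 10 genes, the 4 of each pathway list with the smallest batch-term p, called marker genes and the 5 most like Ptgds. Further list genes are given by value or range, or only within the counts and medians of their list. Marker sums without Fabp4 and Cfd, or without Ccr3, were added after seeing the data. No 2 libraries of a genotype were alike within sampling noise. Intervals cover counting error only.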

Additional observations from a re-analysis of the deposited data

How the results depend on the processing

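Library number and depth limit these results, with 3 libraries a genotype, 3 or 4 residual degrees of freedom and Ptgds at 2 to 5 counts in each knockout library. Where replicate 1 of a genotype is left out of the batch-term fit, the other replicate 1 library no longer informs the genotype difference. Ptgds lay below 0 in all 14 alternatives of the batch-term fit (-4.98 to -3.99) and all 15 of the genotype-only fit (-5.01 to -3.95), and passed the threshold in 8 and 4 of them. Besides the fits without a library, the batch-term call was lost with limma-voom (adjusted p = 0.0666) and with replicates 2 and 3 alone (adjusted p = 0.0533, edgeR). Ptgs2 and Ptger3 also lay below 0, and Ptges and Tbxas1 above 0, in every alternative. Deviations from the genotype means correlated between genotypes at 0.638, 0.533 and -0.102 for numbers 1, 2 and 3. Deviations of 3 libraries from their own mean are tied to each other, so these values cannot tell whether the numbers pair the samples. With the replicate block 57 genes were called, against 0 with genotype only and 72 with the batch term, and Ptgds passed (adjusted p = 0.0235, edgeR).

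The number of genes called with genotype only, 0, became 1 with RLE factors, 271 with DESeq2, 12 with length and GC offsets, 50 with replicates 2 and 3 alone, 72 with the batch term and 3 at an adjusted p under 0.1, and 0 to 42 with a library left out. The 72 of the batch-term fit became 1565 with DESeq2, 337 with the offsets, 376 at an adjusted p under 0.1 and 0 to 205 with a library left out. The causes were not tested.

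Signs changed as follows, none past the threshold. In the genotype-only fit Hpgds became -0.21 with limma-voom, -0.19 with the replicate block, -1.15 with replicates 2 and 3 alone and -0.30 with the batch term. Ptgis became -0.039, -0.33, -0.032 and -0.022 with limma-voom, the offsets, the replicate block and the batch term. The offsets turned Ptges3 (0.11), Ptgr2 (0.069), Alox5ap (-0.052) and Cysltr1 (0.14). In the batch-term fit limma-voom turned Hpgds (0.19), replicates 2 and 3 alone turned Ptgis (0.49), and the offsets turned Hpgds (0.40), Ptges3 (0.12), Ptgr2 (0.067), Alox5ap (-0.0044) and Cysltr1 (0.14). With a library left out of the genotype-only fit the ranges were -1.45 to 1.00 for Hpgds, -0.26 to 0.59 for Ptgis, -0.82 to 0.0044 for Ptger4, -0.17 to 0.50 for Ptgfr, -0.052 to 0.36 for Ptgfrn and -0.052 to 0.57 for Alox5ap. In the batch-term fit they were -1.14 to 0.35 for Hpgds, -0.35 to 0.51 for Ptgis, -0.22 to 0.71 for Ptgfr and -0.043 to 0.44 for Ptgfrn.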

Other observations

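The other branch of arachidonic acid metabolism, the lipoxygenases and leukotrienes, had 8 of 10 listed genes in the table, and 0 were called in either edgeR fit. The batch-term median was -0.15, with 3 of 8 above 0. At an unadjusted p under 0.05 there was 1 gene (24.5% of all genes), Ltc4s. DESeq2 with the batch term also called Ltc4s higher (6.14% of all genes were). Ltc4s, the synthase that makes leukotriene C4, stood at 70.3, 148 and 98.3 CPM in wild type and 152, 253 and 263 CPM in knockout, without overlap (1.08, SE 0.22, adjusted p = 0.0790, edgeR batch-term fit, and 0.42 with length and GC offsets). An annotated antisense transcript covers 32.7% of its exonic bases, so its counts are uncertain to that extent. Alox15, the lipoxygenase of peritoneal macrophages and eosinophils in mice, stood at 14.2, 33.4 and 22.1 CPM and 1.81, 9.89 and 32.5 CPM, with knockout replicates at both ends of the range (-1.14, SE 0.63, adjusted p = 0.273, edgeR batch-term fit). Cysltr1, a receptor for leukotrienes of the C4 family, had a value of -0.84 and Alox5ap, which presents arachidonic acid to the lipoxygenase of leukotriene synthesis, one of 0.35.

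Among 8 genes of cAMP handling, the second messenger that EP3 lowers and EP4 raises, 0 were called in either edgeR fit, and 3 were lower at an unadjusted p under 0.05 in the batch-term fit (12.4% of all genes). DESeq2 called 0 of them with genotype only and 1 of them lower with the batch term (5.25% of all genes). Pde3b, the insulin-activated phosphodiesterase of adipocytes, stood at 572, 149 and 373 CPM in wild type and 336, 95.0 and 68.7 CPM in knockout (-1.37, SE 0.38, adjusted p = 0.122, edgeR with the batch term). Pde3b and Creb1, a transcription factor that cAMP activates, were higher in wild-type replicates 1 and 3 and knockout replicate 1 than in the other 3 libraries, the split of the first principal component. Nr4a1, an immediate early gene induced by cAMP, stood at 25.9, 8.76 and 13.4 CPM and 6.01, 8.57 and 5.79 CPM, without overlap (-1.11, SE 0.39, adjusted p = 0.166, edgeR with the batch term). The hormone-sensitive lipase gene Lipe had a value of 0.58 (adjusted p = 0.213, edgeR batch-term fit).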
